A study of Drosophila melanogaster with 8 samples.

Results

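The genes described here are 34 components of the Toll and Imd signalling pathways of Drosophila, taken by symbol from the 17411 genes of the count files. They cover the extracellular cascade up to the Toll ligand, the receptor with its adaptors and kinases, and the NF-kappaB factors with the inhibitor Cactus. The Imd adaptors and kinases, the ubiquitin enzymes and the regulators of both pathways are also covered. The antimicrobial peptides and the peptidoglycan recognition proteins are not among them. All 34 symbols were found.

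RNA was sequenced from the cuticle of adult Drosophila melanogaster females with the fat body attached, at an adult age of 1 week. The 9G8 RNAi group (n = 4) had the genotype yolk-Gal4>9G8RNAi, in which a driver used for the fat body of adult females expresses a hairpin against 9G8, an SR protein encoded by the gene x16 that acts in splicing. The control group (n = 4) had the genotype yolk-Gal4/w1118, which carries the same driver and no hairpin. An effect of the hairpin, of its transgene and of the strain background cannot be told apart in this design.

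The Toll and Imd pathways are the main routes by which the fat body switches on antimicrobial peptide genes. In the Toll pathway, secreted recognition proteins and serine proteases end in the cleavage of the ligand Spatzle, which binds the receptor Toll and, through adaptors and the kinase Pelle, frees the NF-kappaB factors Dorsal and Dif from the inhibitor Cactus. In the Imd pathway, bacterial peptidoglycan leads through the adaptor Imd, ubiquitin chains and a kinase relay to the cleavage of the NF-kappaB factor Relish. Much of this control acts on proteins, which transcript counts do not measure.

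The libraries held 25396063 to 36181492 counts, and the 34 genes took 0.121% to 0.191% of the counts in 9G8 RNAi and 0.149% to 0.241% in control. The targeted gene x16 had 198.6, 34.7, 103.1 and 49.5 CPM (counts per 1000000 of a library size scaled by TMM factors) in 9G8 RNAi libraries 1 to 4, against 60.4, 65.6, 325.5 and 145.1 CPM in control libraries 1 to 4. The groups overlapped, and the log2 fold change of x16 was -0.63 (SE 0.63, adjusted p = 0.862), so these counts show no detectable loss of the target. With marker scores of other tissues as covariates the estimate was -1.02 (germline), -1.25 (eggshell), -2.37 (hemocyte) and 0.65 (gut). It passed under none of the 20 alternatives. Loss within fat body cells alone cannot be read from bulk tissue. Mitochondrially encoded genes took 12.9% to 18.05% of counts in 9G8 RNAi and 11.6% to 14.04% in control. All 10 fat body markers had counts in every library, but Fbp1, at 0.052 to 0.277 CPM, was too scarce to be tested. Scores (mean log2 CPM of the list) overlapped, at 7.59 to 8.69 in 9G8 RNAi and 7.23 to 8.21 in control. The summed level of the markers, led by yolk protein genes, was 12840 to 22600 CPM in 9G8 RNAi and 7127 to 11220 CPM in control. The mean was lower in 9G8 RNAi for 4 of the 10, the scarce Fbp1 among them. Of the 10 markers Yp2, a yolk protein gene, passed as higher (log2 fold change 1.60, adjusted p = 0.0490) and Lsp2, a larval serum protein gene, as lower (-2.53, adjusted p = 0.0224). Both calls depend on the libraries and settings used, and of the 20 alternatives Yp2 passed under 5 and Lsp2 under 13. With 1 library left out the adjusted p was up to 0.153 for Yp2 (without control library 3) and up to 0.081 for Lsp2 (without 9G8 RNAi library 2). With all libraries kept, Yp2 did not pass with scaling by RLE factors (adjusted p = 0.0679) or with the gut score as a covariate (adjusted p = 0.323). In bulk tissue, fewer cells of a type and less RNA per cell cannot be told apart.

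None of the signalling components passed the test between the genotypes. Of the 33 that could be tested, 0 had an adjusted p under 0.05 (edgeR quasi-likelihood F test, Benjamini-Hochberg adjustment over all 9846 tested genes), where 3.21% of all tested genes did, 0.995% as higher and 2.21% as lower in 9G8 RNAi. The lowest adjusted p was 0.178, for SPE. At an unadjusted p under 0.05 there were 3 components, SPE, spz and Tak1, or 9.09% of those tested, beside 12.9% of all tested genes. These 3 had negative log2 fold changes, which 7.79% of all tested genes combined with such a p. The count was 0 also with DESeq2, which called 5.31% of the same genes, and with limma-voom, which called 3.33%.

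The typical size of the differences was close to that over all genes. The log2 fold changes of the 33 components ran from -1.42 (spz) to 0.59 (POSH), with a median of -0.09, beside 0.0098 over all tested genes. Their median absolute log2 fold change was 0.32, beside 0.34 over all tested genes. In 26 components the absolute log2 fold change was under 0.5, and in 3 it was at least 1, a size that 13.6% of all tested genes reached. Values were negative for 19 components (57.6%) and positive for 14, where 49.2% of all tested genes were negative. The 95% interval lay within 1 log2 unit of 0 for 11 components, so for the other 22 a change of 2-fold or more in at least 1 direction lies inside the interval. Libraries of a group overlapped with those of the other for 32 of the 33. Groups apart were found for SPE alone, or 3.03%, beside 8.73% of all tested genes, 5.78% with 9G8 RNAi as the lower group.

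**Figure D1:**
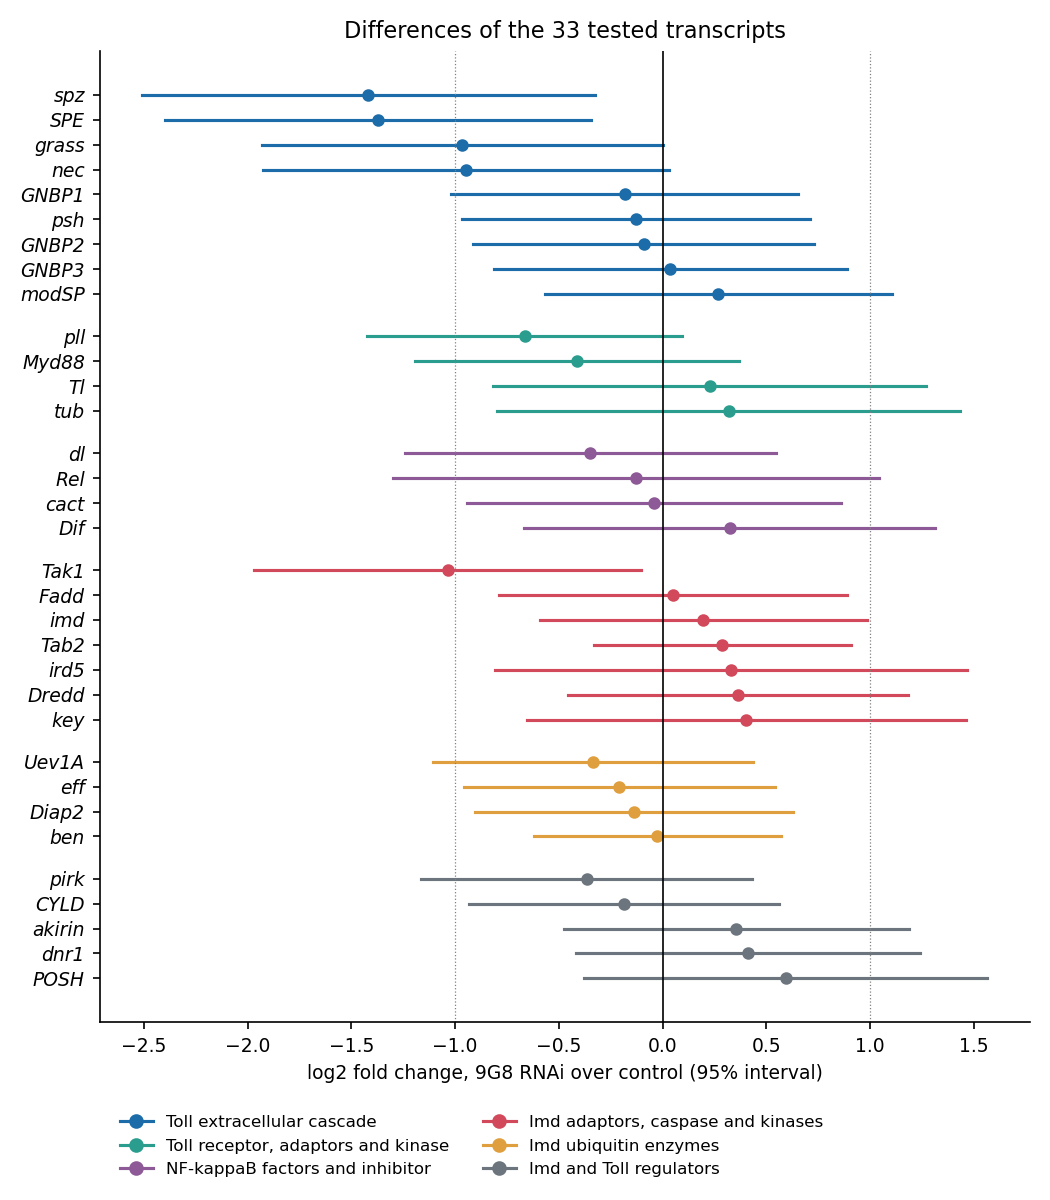
Log2 fold change of 9G8 RNAi over control for the 33 tested components, ordered by role, with points for the estimate and lines for its 95% interval; dotted lines mark 1 log2 unit to either side of 0. The intervals of SPE, spz and Tak1 lie below 0, and those of the other components include it.

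The extracellular cascade held the largest differences of the set. Of its 10 genes 9 were tested, 7 with a negative and 2 with a positive log2 fold change, with a median of -0.18, and none passed. SPE (FBgn0039102, chromosome arm 3R, positions 23686255 to 23688147 of BDGP6) encodes the Spatzle processing enzyme, the protease that cleaves the Toll ligand into its active form. It had 61.0, 61.3, 121.3 and 141.5 CPM in 9G8 RNAi libraries 1 to 4, against 179.0, 495.0, 162.3 and 160.2 CPM in control libraries 1 to 4. Every 9G8 RNAi library lay below every control library, and control library 2 stood far above the rest of its group. The log2 fold change was -1.37 (SE 0.47, 95% interval -2.40 to -0.35, adjusted p = 0.178). Without control library 2 it was -0.80 (adjusted p = 0.552), and over the 20 alternatives its adjusted p ran from 0.108 to 0.569. SPE shares 8.45% of its exon bases with CG18754 on the same strand, so part of its counts depends on how reads of the overlap were assigned.

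The ligand gene spz (FBgn0003495, 3R, positions 27064990 to 27070070) had the most negative estimate. Its level was 6.12, 6.43, 4.96 and 3.17 CPM in 9G8 RNAi libraries 1 to 4, against 17.6, 5.58, 6.60 and 25.6 CPM in control libraries 1 to 4. Control libraries 1 and 4 were high, while control libraries 2 and 3 sat at the level of the 9G8 RNAi libraries. The log2 fold change was -1.42 (SE 0.50, 95% interval -2.51 to -0.33, adjusted p = 0.197). It was -0.93 without control library 4 (adjusted p = 0.407), and the smallest adjusted p over the 20 alternatives was 0.0827, with DESeq2.

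Upstream of SPE, the protease grass (FBgn0039494, 3R, positions 27157948 to 27159781) relays recognition of cell wall components. It had 30.5, 36.3, 57.6 and 127.6 CPM in 9G8 RNAi libraries 1 to 4, against 156.1, 122.8, 103.9 and 109.0 CPM in control libraries 1 to 4. The first 3 of the 9G8 RNAi libraries lay below all controls, and 9G8 RNAi library 4 lay above 3 of the 4. The log2 fold change was -0.96 (SE 0.44, 95% interval -1.93 to 0.0013, adjusted p = 0.388). Without 9G8 RNAi library 4, grass was the 1 component that passed, at -1.57 (adjusted p = 0.0304), in a comparison that called 3.76% of 10101 genes as lower. Its adjusted p over the 20 alternatives ran from 0.0304 to 0.874.

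The serpin nec, which restrains the protease cascade, had 201.8, 246.0, 396.4 and 545.4 CPM in 9G8 RNAi libraries 1 to 4, against 594.2, 1182, 522.9 and 379.4 CPM in control libraries 1 to 4. As for SPE, control library 2 was the highest of the 8 and 9G8 RNAi libraries 1 and 2 were the lowest, but 9G8 RNAi libraries 3 and 4 reached into the range of the controls. Its log2 fold change was -0.95 (SE 0.45, 95% interval -1.93 to 0.031, adjusted p = 0.417), and without control library 2 it was -0.52 (adjusted p = 0.891). The protease psh, which senses microbial proteases, averaged 79.3 ± 22.7 CPM in 9G8 RNAi and 86.7 ± 37.2 CPM in control (SD, n = 4 each). For modSP, the protease at the head of the cascade, the averages were 15.7 ± 7.73 CPM in 9G8 RNAi and 13.1 ± 3.42 CPM in control. Log2 fold changes were -0.13 for psh (adjusted p = 0.963) and 0.27 for modSP (adjusted p = 0.914).

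Recognition proteins of the GNBP family showed estimates near 0. GNBP1, a partner in the sensing of Gram-positive bacteria, averaged 6.94 ± 1.75 CPM in 9G8 RNAi and 7.88 ± 2.83 CPM in control. GNBP3, a sensor of fungal glucans, averaged 30.9 ± 10.3 CPM in 9G8 RNAi and 30.1 ± 15.7 CPM in control. The related GNBP2 averaged 24.3 ± 7.68 CPM in 9G8 RNAi and 25.8 ± 12.8 CPM in control. Their log2 fold changes lay between -0.18 for GNBP1 and 0.04 for GNBP3, and the adjusted p was 0.946 or more for each. The Wnt ligand gene wntD, an inhibitor of Toll signalling, was too scarce to be tested. It had 1, 2, 39 and 1 counts in 9G8 RNAi libraries 1 to 4, against 2, 0, 0 and 3 counts in control libraries 1 to 4. Of its 43 counts in 9G8 RNAi all but 4 came from library 3, and the control libraries held 5 in all.

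**Figure D2:**
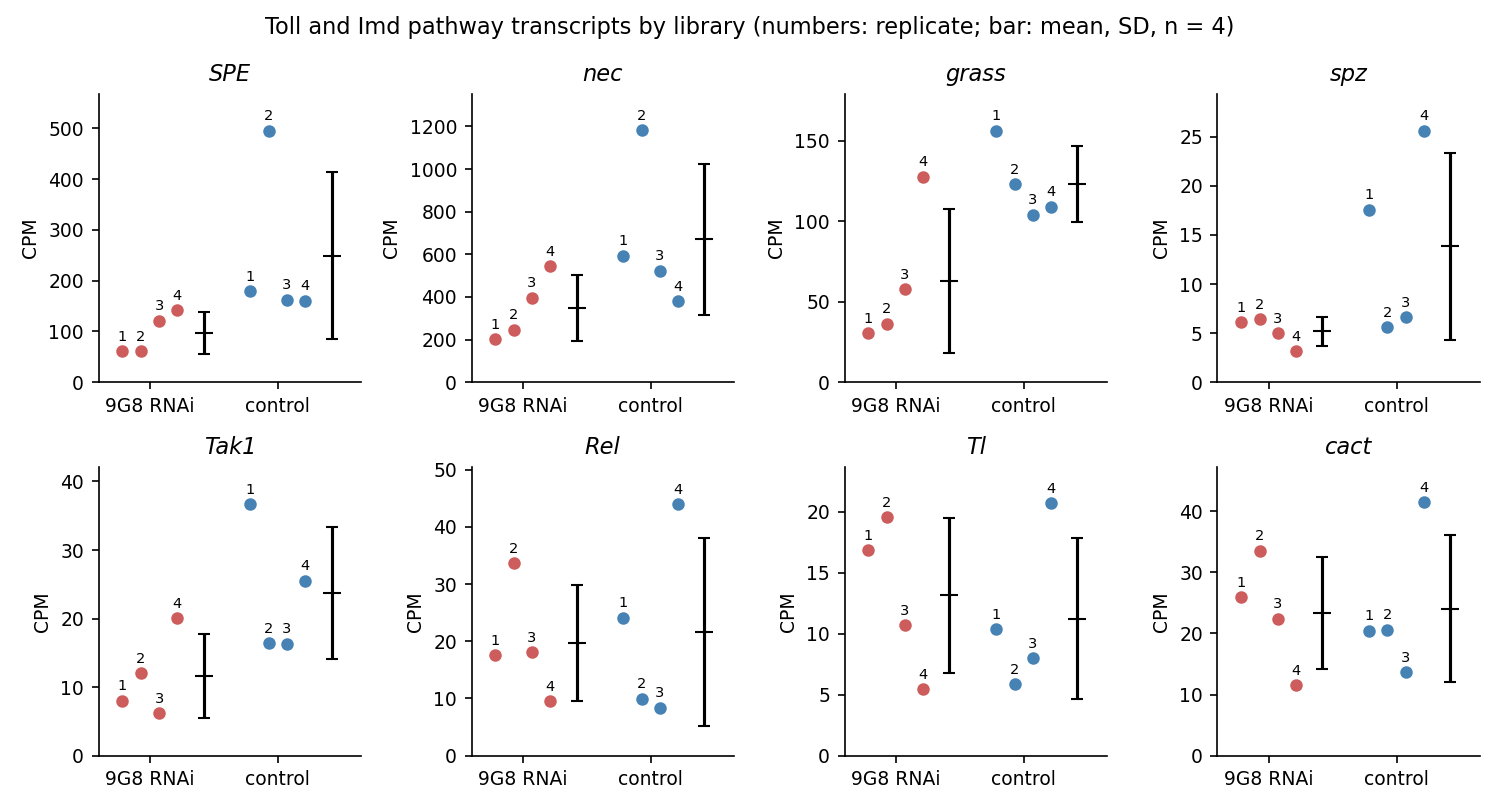
Level in CPM of 8 components in each library, with 9G8 RNAi in red and control in blue, replicate numbers above the points and bars for mean and SD (n = 4). SPE alone has groups that do not overlap, and control library 2 in SPE and nec and control library 4 in spz and Rel stand above the other controls.

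The receptor Tl, which binds cleaved Spatzle, differed by less than the spread within each group. Its level was 16.9, 19.6, 10.7 and 5.46 CPM in 9G8 RNAi libraries 1 to 4, against 10.4, 5.87, 7.97 and 20.7 CPM in control libraries 1 to 4. The highest library was a control and the lowest a 9G8 RNAi library, with a log2 fold change of 0.23 (SE 0.48, 95% interval -0.82 to 1.27, adjusted p = 0.946). The adaptor Myd88 averaged 11.0 ± 3.75 CPM in 9G8 RNAi and 14.7 ± 4.45 CPM in control (log2 fold change -0.41, adjusted p = 0.814). Its partner tub averaged 6.23 ± 3.51 CPM in 9G8 RNAi and 5.01 ± 2.14 CPM in control (0.32, adjusted p = 0.926). The kinase pll, which carries the signal to Cactus, had 13.0, 14.3, 14.9 and 19.8 CPM in 9G8 RNAi libraries 1 to 4, against 12.9, 34.8, 22.7 and 28.0 CPM in control libraries 1 to 4. In pll the controls other than library 1 lay above all 9G8 RNAi libraries, and the log2 fold change was -0.67 (SE 0.35, 95% interval -1.42 to 0.092, adjusted p = 0.487).

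None of the 3 NF-kappaB genes, nor cact, whose product inhibits Dorsal and Dif, differed beyond the spread between libraries. Dif, the Toll factor best known from adult immunity, had 12.0, 26.4, 14.0 and 7.59 CPM in 9G8 RNAi libraries 1 to 4, against 13.2, 8.91, 6.24 and 19.7 CPM in control libraries 1 to 4. The factor dl, named for its role in the embryo's dorsoventral axis, had 7.47, 9.84, 5.94 and 4.31 CPM in 9G8 RNAi libraries 1 to 4, against 10.4, 5.44, 5.79 and 13.6 CPM in control libraries 1 to 4. In both genes library 2 was the highest of the 9G8 RNAi group and library 4 the highest of the controls. The log2 fold change was 0.32 for Dif (SE 0.46, 95% interval -0.67 to 1.32, adjusted p = 0.912) and -0.35 for dl (SE 0.41, 95% interval -1.24 to 0.54, adjusted p = 0.892).

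The inhibitor cact, itself known as a target of Toll signalling, had 25.9, 33.6, 22.4 and 11.5 CPM in 9G8 RNAi libraries 1 to 4, against 20.4, 20.7, 13.6 and 41.5 CPM in control libraries 1 to 4. Its group means of 23.3 ± 9.17 CPM in 9G8 RNAi and 24.0 ± 12.1 CPM in control were close, with a log2 fold change of -0.04 (SE 0.41, 95% interval -0.94 to 0.86, adjusted p = 0.988). The Imd factor Rel had 17.6, 33.7, 18.1 and 9.51 CPM in 9G8 RNAi libraries 1 to 4, against 24.1, 9.93, 8.39 and 43.9 CPM in control libraries 1 to 4. Rel had the highest biological coefficient of variation of the set, 0.547, with the same libraries high as for cact, and a log2 fold change of -0.13 (SE 0.54, 95% interval -1.30 to 1.04, adjusted p = 0.972).

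Among the 7 Imd adaptors and kinases, 6 estimates were positive and 1 was negative, with a median of 0.29 and none passing. These signs depended in part on 9G8 RNAi library 2. Without it the estimates were -0.021 for imd and -0.13 for ird5, while those of Fadd, Dredd, Tab2 and key stayed positive. With control library 3 also left out, key was at -0.094. The adaptor imd, which gives the pathway its name, had 5.90, 9.32, 5.81 and 5.92 CPM in 9G8 RNAi libraries 1 to 4, against 7.08, 6.23, 3.61 and 6.62 CPM in control libraries 1 to 4. Apart from a high 9G8 RNAi library 2 and a low control library 3 the libraries were alike, with a log2 fold change of 0.20 (SE 0.36, 95% interval -0.59 to 0.98, adjusted p = 0.940). The negative estimate belonged to Tak1 (FBgn0026323, chromosome X, positions 20515908 to 20524928), the kinase that branches to Relish and to JNK. Tak1 had 8.03, 12.1, 6.23 and 20.1 CPM in 9G8 RNAi libraries 1 to 4, against 36.7, 16.4, 16.3 and 25.5 CPM in control libraries 1 to 4. Only 9G8 RNAi library 4 reached into the range of the controls. Its log2 fold change was -1.04 (SE 0.43, 95% interval -1.97 to -0.10, adjusted p = 0.304), with -1.44 without 9G8 RNAi library 4 (adjusted p = 0.0755) and -0.64 without control library 1 (adjusted p = 0.817).

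The Tak1 partner Tab2 did not share that estimate. Tab2 averaged 19.0 ± 2.98 CPM in 9G8 RNAi and 15.6 ± 1.70 CPM in control (log2 fold change 0.29, adjusted p = 0.856). The adaptor Fadd averaged 5.44 ± 1.67 CPM in 9G8 RNAi and 5.25 ± 1.70 CPM in control, and the caspase Dredd, which it recruits, 5.80 ± 1.92 CPM in 9G8 RNAi and 4.52 ± 1.11 CPM in control. Log2 fold changes were 0.05 for Fadd (adjusted p = 0.986) and 0.36 for Dredd (adjusted p = 0.865). The subunits of the fly IKK complex were scarce. The regulatory subunit key averaged 5.66 ± 2.88 CPM in 9G8 RNAi and 4.29 ± 1.81 CPM in control (0.40, adjusted p = 0.895). The catalytic subunit ird5, named IKKbeta in a later annotation, averaged 3.72 ± 2.09 CPM in 9G8 RNAi and 2.97 ± 1.64 CPM in control (0.33, adjusted p = 0.926), and 8.08% of its exon bases are shared with another gene.

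The ubiquitin enzymes, which build the chains that join the steps of the Imd pathway, gave estimates between -0.33 and -0.03. The ubiquitin ligase Diap2 averaged 73.6 ± 17.96 CPM in 9G8 RNAi and 81.0 ± 31.0 CPM in control. The conjugating enzyme ben averaged 36.5 ± 5.54 CPM in 9G8 RNAi and 37.1 ± 4.04 CPM in control, with a log2 fold change of -0.03 and the narrowest interval of the set, -0.62 to 0.57. Its partner Uev1A averaged 176.0 ± 45.1 CPM in 9G8 RNAi and 221.8 ± 77.0 CPM in control. The conjugating enzyme eff averaged 193.3 ± 59.9 CPM in 9G8 RNAi and 223.2 ± 57.1 CPM in control. All 4 estimates were negative, down to -0.33 for Uev1A, with adjusted p of 0.871 or more. The estimates for Diap2, ben and Uev1A were above 0 with the gut score as a covariate (0.021, 0.059 and 0.073).

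Of the 5 regulators, 3 had positive and 2 negative estimates, and none passed. POSH, a scaffold and ubiquitin ligase that limits Tak1 signalling, had the highest estimate of the set. It averaged 5.61 ± 2.31 CPM in 9G8 RNAi and 3.72 ± 1.61 CPM in control (log2 fold change 0.59, SE 0.45, 95% interval -0.38 to 1.57, adjusted p = 0.751). The inhibitor pirk, known as a feedback target of Imd signalling, averaged 3.41 ± 0.927 CPM in 9G8 RNAi and 4.39 ± 0.682 CPM in control (-0.37, adjusted p = 0.861). The Relish cofactor akirin averaged 38.0 ± 13.5 CPM in 9G8 RNAi and 29.7 ± 12.3 CPM in control (0.35, adjusted p = 0.873). The Dredd inhibitor dnr1 averaged 6.95 ± 3.19 CPM in 9G8 RNAi and 5.23 ± 0.556 CPM in control (0.41, adjusted p = 0.836). The deubiquitinase CYLD averaged 6.85 ± 0.940 CPM in 9G8 RNAi and 7.79 ± 2.19 CPM in control (-0.19, adjusted p = 0.940). Of the exon bases of POSH 7.16%, and of those of CYLD 15.0%, are shared with a gene on the opposite strand, and the strand setting of the counting is not given in the sources used here.

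Per kilobase of exon, the levels of the components spanned more than 2 orders of magnitude. The serpin nec was the most abundant, at 212.7 ± 95.6 CPM per kb in 9G8 RNAi and 410.1 ± 216.2 CPM per kb in control. SPE came next in the mean over all libraries, with 76.0 ± 32.7 CPM per kb in 9G8 RNAi and 196.6 ± 129.5 CPM per kb in control. Behind them stood the ubiquitin enzymes Uev1A and eff and the proteases grass and psh, so secreted cascade proteins and general ubiquitin enzymes led the order. The signal transducers sat far lower on this scale. Rel had 5.64 ± 2.88 CPM per kb in 9G8 RNAi and 6.17 ± 4.71 CPM per kb in control. Tl had 2.53 ± 1.22 CPM per kb in 9G8 RNAi and 2.16 ± 1.27 CPM per kb in control. The lowest of the tested genes was dl, at 1.07 ± 0.365 CPM per kb in 9G8 RNAi and 1.37 ± 0.606 CPM per kb in control. In every library even the scarcest tested gene, ird5, had at least 31 counts, so the spread between libraries rather than counting error limited the precision.

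**Figure D3:**
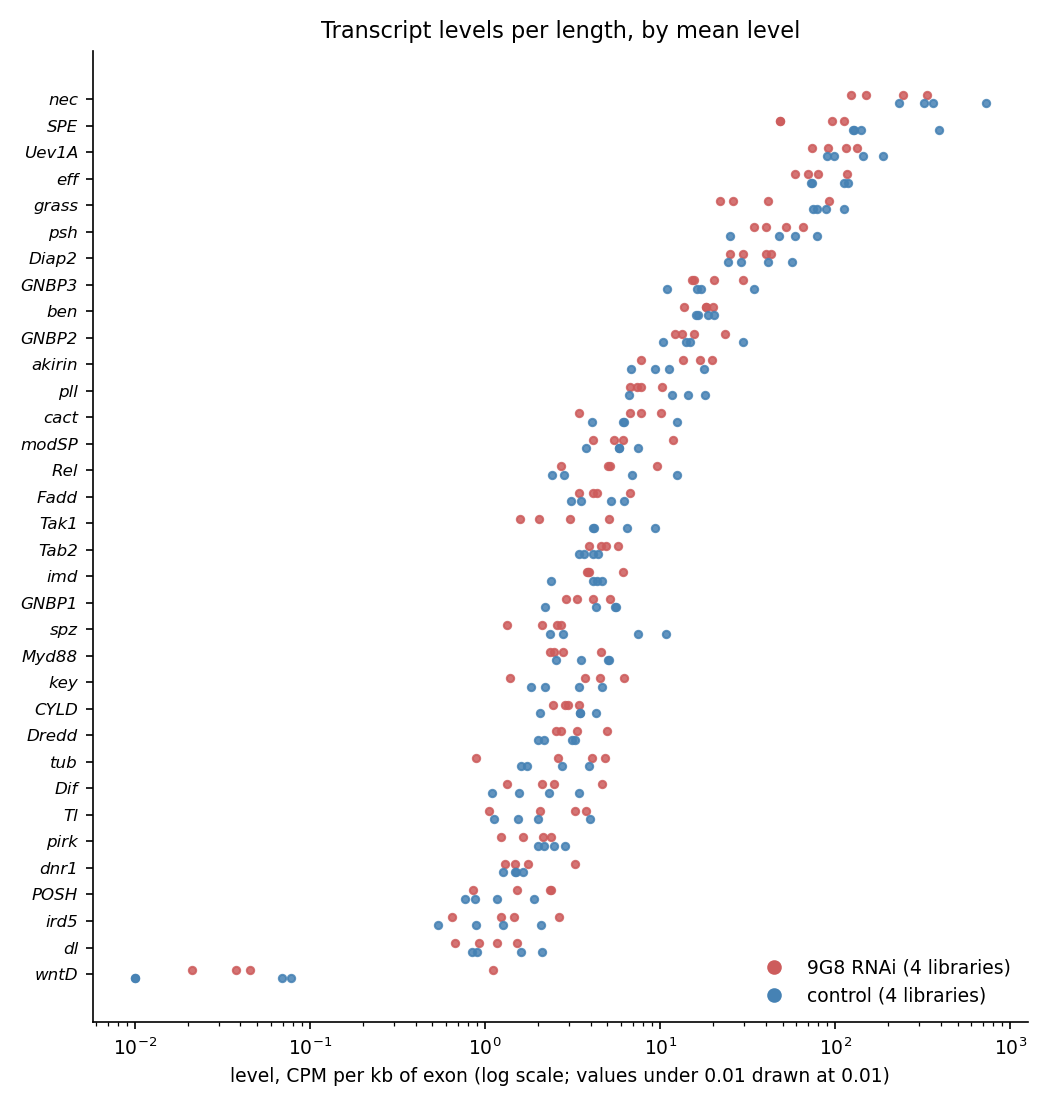
Level of the 34 components in CPM per kilobase of exon on a log axis, in order of the mean over all libraries, with 9G8 RNAi in red and control in blue and 1 point per library. The order runs from nec and SPE at the top to dl and wntD at the bottom, and the colours overlap for most genes.

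Groups of components peaked in the same libraries, in a way that cut across the genotypes. In the 9G8 RNAi group library 2 was the highest for 19 of the 33 tested components and library 4 for 13. Among the controls library 4 was the highest for 13, library 2 for 9, library 1 for 7 and library 3 for 4. A set of 12 components peaked in 9G8 RNAi library 2 and in control library 4, namely spz, Tl, Myd88, tub, Dif, dl, cact, Rel, key, ird5, akirin and dnr1. These include the ligand, the receptor, both its adaptors, the NF-kappaB factors and the inhibitor. Another 6 peaked in 9G8 RNAi library 4 and in control library 2, namely psh, SPE, nec, GNBP2, pll and Diap2. Fadd, ben, Uev1A and eff peaked in 9G8 RNAi library 4 and in control library 3. Secreted proteins are encoded by psh, SPE, nec and GNBP2, but also by spz of the first set. The secreted grass, modSP, GNBP1 and GNBP3 peaked in other pairs of libraries. The sets were read off the same libraries and were not tested, and the share of all tested genes with each pattern was not computed. Over all tested genes, deviations from the group mean correlated at 0.33 between 9G8 RNAi library 2 and control library 4. The correlation was 0.50 between 9G8 RNAi library 4 and control library 2, and -0.12 between 9G8 RNAi library 4 and control library 3. All pairs ran from -0.59 to 0.53. Whether such shared peaks are particular to these components was not tested.

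**Figure D4:**
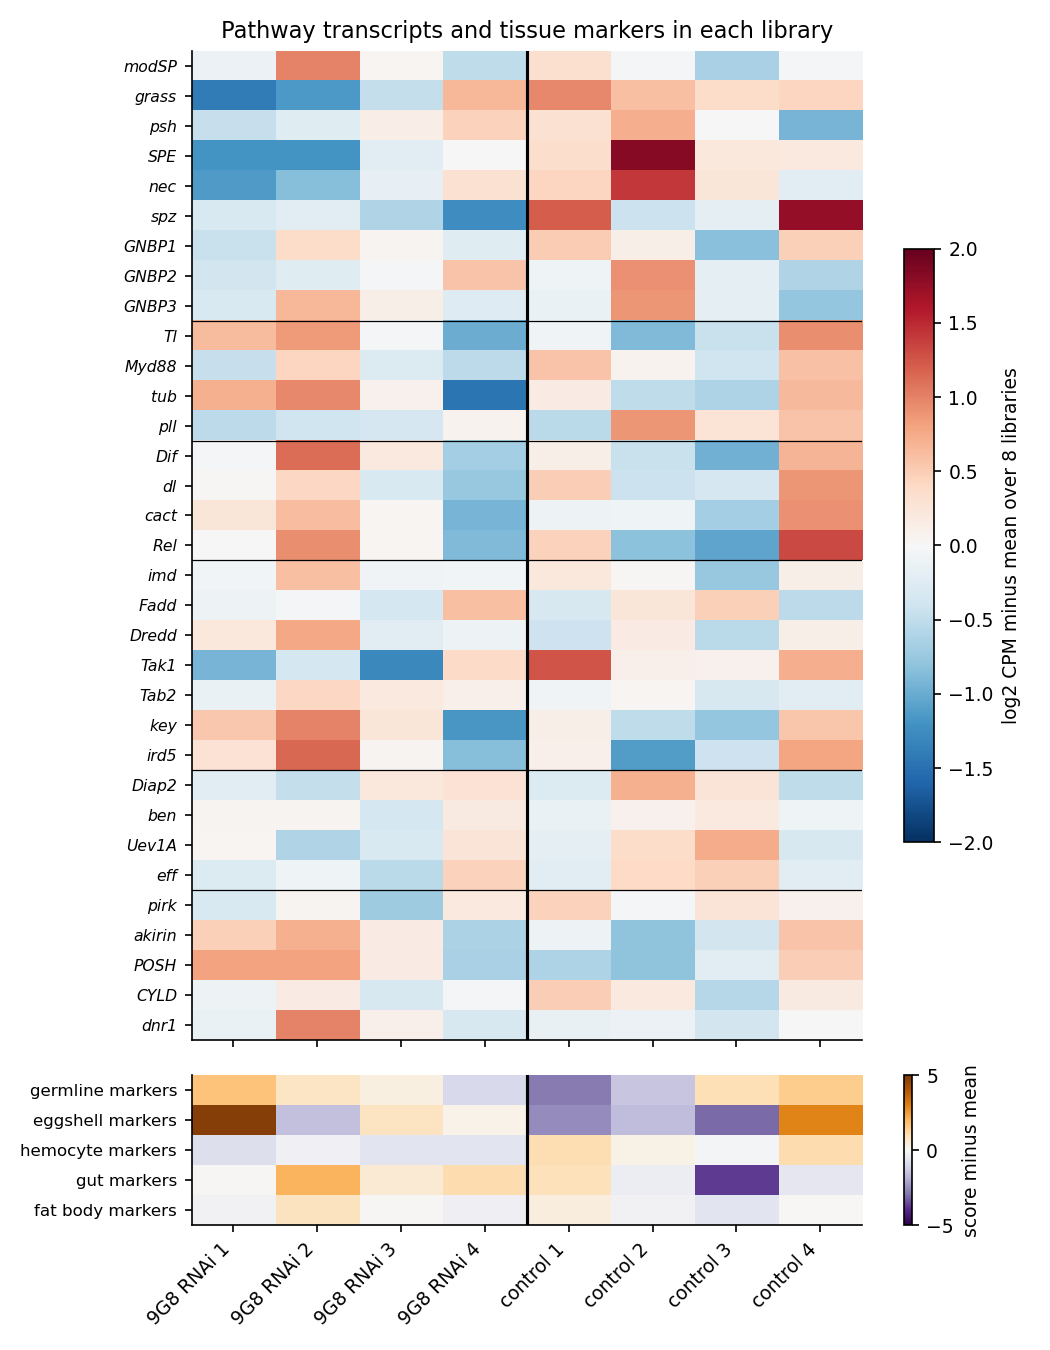
Log2 CPM of the 33 tested components minus their mean over the 8 libraries, by role, with 5 marker scores below on a scale of their own; 9G8 RNAi libraries stand left of the line and controls right of it. High values of Tl, Dif, cact and Rel fall in 9G8 RNAi library 2 and control library 4, and those of SPE and nec in control library 2.

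Markers of other cell types also moved between these libraries. The dissected tissue can hold blood cells, and all 12 hemocyte markers had the lower mean in 9G8 RNAi, with groups apart for 5 and none at 0. Their summed level was 132.2 to 218.6 CPM in 9G8 RNAi and 279.9 to 525.5 CPM in control, so the groups did not overlap. He and Pxn, a blood cell surface protein and a matrix peroxidase, passed as lower (log2 fold change -1.96, adjusted p = 0.0364, and -1.54, adjusted p = 0.0465). Both calls are close to the threshold, and leaving out 1 library at a time moved the adjusted p to 0.154 at most for He and to 0.196 at most for Pxn, in each case without 9G8 RNAi library 1. The hemocyte score, the mean log2 CPM of the markers, was 2.19, 2.80, 2.35 and 2.37 in 9G8 RNAi libraries 1 to 4, against 4.05, 3.27, 2.93 and 4.09 in control libraries 1 to 4. Control libraries 1 and 4, in which spz, Tak1 and Rel were high, had the highest of these scores. Rel was also high in 9G8 RNAi library 2, at 33.7 CPM against 24.1 CPM in control library 1. The score of that 9G8 RNAi library was the highest of its group and lay below every control. A link between blood cell content and these levels was not tested.

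With the hemocyte score as a covariate, the log2 fold change was 0.56 for spz (SE 0.64, adjusted p = 0.597), 0.0045 for Tak1 (SE 0.68, adjusted p = 0.997) and -2.23 for SPE (SE 0.87, adjusted p = 0.212). For Rel it was 2.26 (SE 0.60, adjusted p = 0.151). The score separates the genotypes, so in this fit genotype and score cannot be told apart well, and it called 11 genes in all. Germline markers overlapped between the groups, with a score of 4.6, 3.7, 3.3 and 1.9 in 9G8 RNAi libraries 1 to 4, against 0.084, 1.5, 3.9 and 4.4 in control libraries 1 to 4. With that score as a covariate the estimates were -1.13 for SPE, -1.55 for spz and -0.89 for Tak1, and no component passed. Gut scores ran from 4.73 to 6.75 in 9G8 RNAi and from 0.95 to 5.60 in control, with control library 3 lowest. Of the 14 markers 4 had the lower mean in 9G8 RNAi. The score of 6.75 was that of 9G8 RNAi library 2, whose summed gut marker level, 13055 CPM, was the lowest of its group. The gut marker Jon65Ai had 481.0 CPM in that library and at most 2.87 CPM in any other. The gut trypsin gene deltaTry passed as higher, at 2.05, 1.42, 2.15 and 3.95 CPM in 9G8 RNAi libraries 1 to 4, against 0.316, 0, 0 and 0 CPM in control libraries 1 to 4 (adjusted p = 0.0210). Its adjusted p was 0.067 without 9G8 RNAi library 2 and 0.0659 without control library 2. With the gut score as a covariate the estimates were -1.56 for SPE, -1.81 for spz and -1.48 for Tak1. Eggshell scores ran from 0.87 to 7.26 in 9G8 RNAi and from -0.71 to 5.32 in control, and with that score as a covariate, chosen after seeing the data, the estimates were -1.20 for SPE, -1.58 for spz and -0.95 for Tak1. Muscle scores, 4.71 to 6.10 in 9G8 RNAi and 4.54 to 6.40 in control, overlapped as well.

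The signalling components can be set beside the pathways' known outputs. The Toll target peptides, among them Bomanins and Daisho peptides that act against fungi and Gram-positive bacteria, had groups apart for 10 of 10 genes. All were lower in 9G8 RNAi, where 5.78% of all tested genes were apart in that direction. Their log2 fold changes ran from -3.18 to -1.93 with a median of -2.97. Of the 10, 4 passed the test, where 2.21% of all tested genes passed as lower. CG18067 (Bombardier, Bbd) averaged 346.2 ± 157.4 CPM in 9G8 RNAi and 2702 ± 1559 CPM in control (adjusted p = 0.00691). IM4 (Dso1) averaged 133.8 ± 77.6 CPM in 9G8 RNAi and 1161 ± 566.0 CPM in control (adjusted p = 0.0113). CG15065 (BomS5, log2 fold change -3.08, adjusted p = 0.0244) and IM14 (Dso2, -2.97, adjusted p = 0.0448) passed as well. CG18067 and IM4 passed with each library left out in turn, but not with the replicate block (adjusted p = 0.0623 and 0.0665), and CG18067 not without control library 3 and 9G8 RNAi library 2 together (adjusted p = 0.0645). CG15065 and IM14 missed the threshold with the block (adjusted p = 0.0843 and 0.147) and with the gut score as a covariate (adjusted p = 0.0816 and 0.127). With single libraries left out, CG15065 had an adjusted p of 0.0722 without control library 2 and 0.0636 without 9G8 RNAi library 1. IM14 reached an adjusted p of 0.126 without control library 2 and missed the threshold without any of 9G8 RNAi libraries 1, 2 and 4 and control libraries 1, 2 and 4. This list had been chosen with its change in these libraries known, so its count is no independent evidence of a direction. With the hemocyte score as a covariate none of the 10 peptides passed, and their median log2 fold change was -4.03. In that fit the estimates were -3.90 for CG18067 (adjusted p = 0.114), -3.92 for IM4 (adjusted p = 0.159), -4.01 for CG15065 (adjusted p = 0.176) and -4.09 for IM14 (adjusted p = 0.198).

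The direction of the Imd target peptides depended on 9G8 RNAi library 3. With all libraries, of the 12, 7 had positive and 5 negative log2 fold changes, with a median of 0.26, a range of -3.01 to 2.56 and none passing or with groups apart. Without 9G8 RNAi library 3 all 12 were negative, with a median of -2.60. CecB and AttC passed as lower there, in a comparison that called 1.79% of 9998 genes in either direction. The median was -1.64 with the replicate block and -1.08 with limma-voom, each with 11 of 12 estimates negative. CecB, a cecropin, averaged 0.304 ± 0.517 CPM in 9G8 RNAi and 2.48 ± 2.28 CPM in control (adjusted p = 0.220), with an adjusted p of 0.0320 without 9G8 RNAi library 3. Dpt, a diptericin, had 22.7 ± 38.7 CPM in 9G8 RNAi and 3.85 ± 1.76 CPM in control (2.56, adjusted p = 0.365), an estimate that was -0.17 without 9G8 RNAi library 3, which held 80.7 CPM. Among 10 tested peptidoglycan recognition proteins, some of which sense bacteria upstream of both pathways, 8 log2 fold changes were negative and 2 positive (median -0.38). Groups were apart for 3, all lower in 9G8 RNAi, where 5.78% of all tested genes were apart in that direction, and 1 passed as lower. That gene, PGRP-SD, a secreted sensor, had 5.80, 3.60, 49.1 and 8.06 CPM in 9G8 RNAi libraries 1 to 4, against 160.4, 198.2, 109.7 and 108.4 CPM in control libraries 1 to 4. All 9G8 RNAi libraries lay below all controls, and the log2 fold change was -3.12 (SE 0.75, adjusted p = 0.0444). Its adjusted p was 0.0887, 0.105 and 0.0657 without 9G8 RNAi libraries 1, 2 and 4, and 0.0849, 0.106 and 0.0584 without control libraries 1, 2 and 3. With the hemocyte score as a covariate its log2 fold change was -3.68 (adjusted p = 0.215), and with the gut score -3.08 (adjusted p = 0.104).

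Further genes of the pathways likewise gave no call. Among 12 tested proteases and serpins of the cascade that are not in the set, 10 had negative and 2 positive log2 fold changes, with a median of -0.67. Hayan, a protease of the psh branch, averaged 39.9 ± 12.3 CPM in 9G8 RNAi and 88.7 ± 32.5 CPM in control (-1.15, adjusted p = 0.155). The serpin Spn28Dc, which restrains melanization, averaged 29.5 ± 7.81 CPM in 9G8 RNAi and 65.7 ± 30.6 CPM in control with groups apart (-1.16, adjusted p = 0.157). Of 6 tested Toll family receptors and spz family ligands, 5 were positive and 1 negative (median 0.26), or 3 and 3 without 9G8 RNAi library 2, with spz5 at 0.49 (adjusted p = 0.826) and spz3 at 0.32 (adjusted p = 0.909). Of 11 intracellular Toll regulators, 5 were positive and 6 negative (median -0.09), with cactin, a partner of Cactus, at 0.75 (adjusted p = 0.682) and smt3, the SUMO gene, at -0.41 (adjusted p = 0.783). Of 17 Imd regulators and JNK branch genes, 7 were positive and 10 negative (median -0.11), and without 9G8 RNAi library 2 there were 1 positive and 16 negative (median -0.34). The TNF ligand gene egr averaged 6.31 ± 2.53 CPM in 9G8 RNAi and 16.9 ± 12.1 CPM in control (-1.42, adjusted p = 0.232). The transcription factor gene kay, the fly Fos, had an estimate of -0.86 (adjusted p = 0.278).

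**Figure D5:**
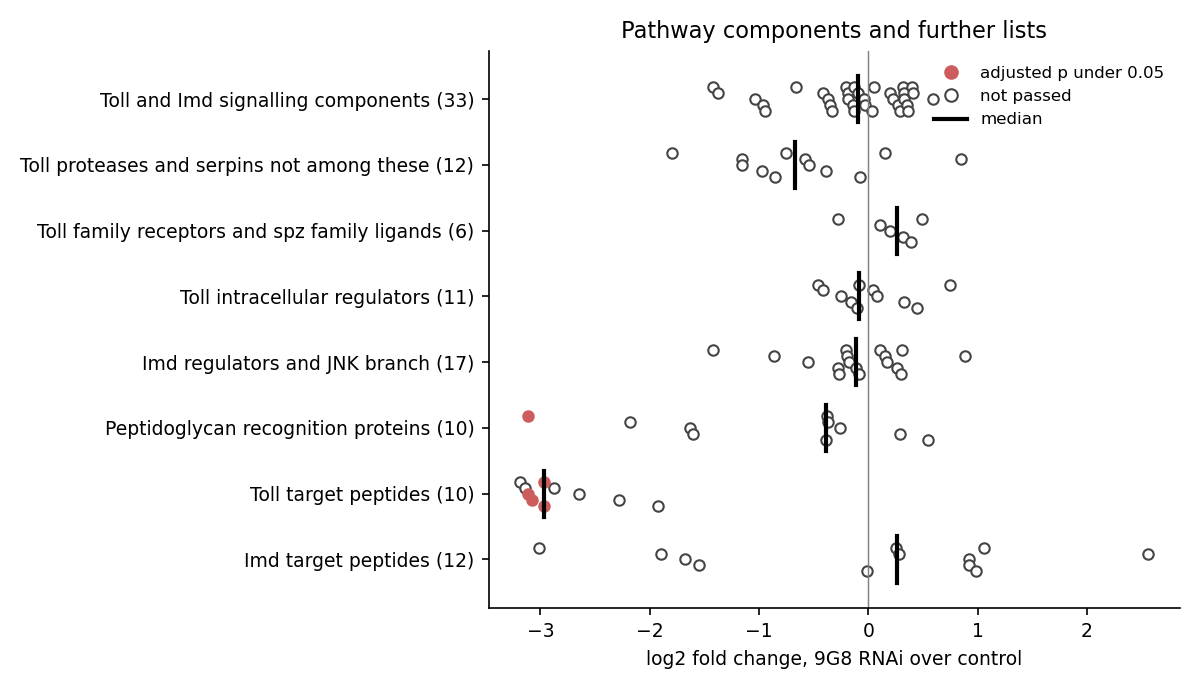
Log2 fold change of 9G8 RNAi over control for each tested gene of the signalling components and of 7 further lists, with the number tested in parentheses, filled red points for an adjusted p under 0.05 and a bar at the median. The median lies at -0.09 for the components and at -2.97 for the Toll target peptides, and the filled points are 4 of these peptides and PGRP-SD.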

How the data were processed

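Polyadenylated RNA from 8 samples was sequenced on an Illumina instrument, per the labels' protocols. Trimmomatic 0.36, STAR 2.5.2b, featureCounts of Subread 1.5.2 and the genome build BDGP6 are named in the submitters' processing notes. The deposited files held raw read counts per gene, whole numbers in the featureCounts layout per the file headers, without normalization. Which annotation release, strand setting and handling of multiply matching reads was used is not given in the sources used here. Older symbols in the files were matched to FlyBase identifiers with a later annotation, used for names only.

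Groups followed the genotype labels. The labels do not say that libraries came from separate flies or cultures, so each p-value reflects only how these libraries vary, which may be technical. Counts were filtered with filterByExpr (9846 genes kept), scaled by TMM and tested with the quasi-likelihood F test of edgeR 4.0.16 in R 4.3.3, without covariates, with Benjamini-Hochberg adjustment over all genes kept and a threshold of 0.05. The common biological coefficient of variation was 0.500. CPM is the count per 1000000 of TMM-scaled library size, divided by exon length in kilobases for levels between genes. SEs derive from the F statistic and 95% intervals from the t distribution. The scripts were tested on simulated data. Alternatives were limma-voom (limma 3.58.1), DESeq2 1.42.0, scaling by RLE factors or by TMM after the 20 most abundant genes were dropped, no filter or a mean CPM of 1 or more as filter, the replicate block, each library left out, control library 3 and 9G8 RNAi library 2 left out together, and germline, gut, hemocyte or eggshell scores (mean log2 CPM, prior count 2) as covariates, the last added after the data were seen.

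The components and the further lists were chosen with earlier results of these data known. Values in every library are given for components with an unadjusted p under 0.05, groups apart or a central role (spz, Tl, Dif, dl, cact, imd, Rel), and, chosen after their values were seen, for grass, nec, pll and wntD. From each further list up to 4 genes that passed are named, or else the 2 with the smallest adjusted p. The markers that passed (He, Pxn, deltaTry, Yp2, Lsp2) and AttC were named after their values were seen. Sequences of the genes and splicing were not analysed here.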

Additional observations from a re-analysis of the deposited data

Results flagged for a closer look

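In 3 of 68 groups of 4 libraries (34 genes in both genotypes), 1 library stood apart from the other 3 by Dixon's criterion, which chance alone meets in about 5 percent of groups. SPE had 495.0 CPM in control library 2, where the other controls had 160.2 to 179.0 CPM. wntD had 1.27 CPM in 9G8 RNAi library 3, where the other 9G8 RNAi libraries had 0.024 to 0.052 CPM, and the gene was too scarce for the test. imd had 9.32 CPM in 9G8 RNAi library 2, where the other 9G8 RNAi libraries had 5.81 to 5.93 CPM.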

How the results depend on the processing

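The number of components passing the test was 0 under every alternative except without 9G8 RNAi library 4, where grass passed, so leaving out 1 library at a time gave 0 to 1, also for lower calls. Over all genes, 316 passed in the analysis reported, 162 to 504 with 1 library left out, 141 with the replicate block, 477 with the germline and 11 with the hemocyte score, 523 with DESeq2 and 96 without control library 3 and 9G8 RNAi library 2 together. The median log2 fold change of the components, -0.09, was 0.56 with the hemocyte score as a covariate. Same-numbered libraries did not deviate together over all tested genes (correlations of -0.57, -0.25, -0.02 and -0.59). The labels do not say what the numbers mean, and these correlations cannot exclude a shared day or batch. With the replicate block the median was -0.03, and the 4 Toll target peptides that had passed did not pass. Of 660 estimates over 33 components and 20 alternatives, 582 kept their direction and side of the threshold, 77 in 23 genes changed sign and 1 passed. The causes were not tested.

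Estimates that changed sign were GNBP2 0.023, cact 0.050 and ben 0.070 under TMM without the 20 most abundant genes, cact 0.033 and ben 0.041 without the low-count filter, cact 0.028 and Rel 0.10 with the replicate block, and Rel 0.079 with limma-voom. With the germline score they were psh 0.15, GNBP2 0.12 and Tl -0.054. With the gut score they were modSP -0.23, GNBP3 -0.23, Dif -0.26, imd -0.23, ird5 -0.024, Diap2 0.021, ben 0.059, Uev1A 0.073 and x16 0.65. With the hemocyte score they were spz 0.56, GNBP1 1.03, GNBP3 -0.19, Myd88 0.69, dl 0.92, cact 1.14, Rel 2.26, Fadd -0.67, Tak1 0.0045, CYLD 0.55, spz3 -0.017, egr 1.03 and kay 0.24. With the eggshell score they were psh 0.24, GNBP2 0.13, Diap2 0.022 and ben 0.0080. Without control library 3 and 9G8 RNAi library 2 together they were modSP -0.29, GNBP3 -0.29, Tl -0.17, tub -0.16, Dif -0.33, imd -0.18, key -0.094, ird5 -0.23, Diap2 0.035, ben 0.022, Uev1A 0.035, dnr1 -0.030 and x16 0.36. With 1 library left out the range crossed 0 for psh (-0.37 to 0.13), GNBP1 (-0.41 to 0.051), GNBP2 (-0.33 to 0.31), cact (-0.30 to 0.36), Rel (-0.54 to 0.50), Diap2 (-0.32 to 0.12), ben (-0.095 to 0.076), modSP (-0.15 to 0.51), GNBP3 (-0.24 to 0.45), Tl (-0.061 to 0.70), tub (-0.013 to 0.62), Dif (-0.13 to 0.68), imd (-0.021 to 0.39), ird5 (-0.13 to 0.74), Fadd (-0.18 to 0.24), CYLD (-0.36 to 0.055), Dpt (-0.17 to 2.94) and x16 (-1.20 to 0.095). With 4 libraries a group the median standard error was 0.38 on the log2 scale, and the 95% interval of 22 of the 33 components reached past 1 log2 unit.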
